A study of Mus musculus with 9 samples.

Results

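Mouse genes encoding subunits of the AP-1 transcription factor were measured in dorsal root ganglia (DRG) with and without injury of the sciatic nerve. The group holds Atf3, Jun, Junb, Jund, Fos, Fosb, Fosl1, Fosl2, Jdp2 and Atf2, 10 genes of the 20895 that the arrays could test. Every probe carrying one of these names, an older symbol of it (Jund1 for Jund, Jundm2 for Jdp2) or its RefSeq identifier was taken, which gave 17 probes among the 41174 on the array. Of these, 15 probes had enough signal to be tested, and all 10 genes kept at least 1 of them.

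Total RNA came from ganglia of adult mice, given as L3 and L4 in the study's methods but as L4 alone in its results text. It was labelled with Cy5 and hybridized against a universal mouse reference RNA labelled with Cy3, the same on all 9 two-colour arrays and with no dye swap. The 4 uninjured arrays carry the treatment label control. The 5 injured arrays carry the label lesion, for ganglia taken 3 days after the sciatic nerve was cut. All 9 samples share the labels cre.neg (tag cre) and jun.wt (tag genotype), and no sample carried another genotype label. The source label of the uninjured samples also names the injury. One passage of the study's text gives a shorter interval than the labels and methods do. A figure legend calls the injury of the array comparison a crush, whereas the methods and another legend name a transection. The treatment label decided the groups. Strain, sex and age beyond adult are not given in the sources used here, and no label says which arrays came from separate animals or pools. For its nerve crush experiments the study took control ganglia from the other side of the same animals. Whether the uninjured array samples came from the injured mice is not stated, so the arrays were treated as unpaired. The p-values therefore measure the spread between these arrays, which may be technical.

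The ganglion samples carried their defining transcripts. Of 15 sensory neuron markers listed, 14 could be tested (all but Trpv1). Their mean log2 ratios to the reference in uninjured ganglia ran from 2.74 for P2rx3 to 10.02 ± 0.12 (SD, n = 4) for Nefl, a neurofilament subunit. Between 70.2% and 78.4% of probes were well above background in Cy5. Pairs of uninjured arrays correlated at r = 0.982 to 0.990 over tested probes, and pairs across the groups at 0.944 to 0.973. The arrays lay on 3 slides, of which 1 held both groups (uninjured array 1 with injured arrays 1, 2 and 5). Injured array 5 was the dimmest in Cy5, with a median probe brightness of 109 scanner units against 147 to 192 on the others.

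AP-1 is a dimer of basic leucine zipper proteins that binds DNA at TGAGTCA (the TPA response element) or at related sites such as TGACGTCA (the cyclic AMP response element). Jun proteins pair with themselves, with Fos proteins or with members of the ATF family, whereas Fos proteins need a Jun partner. In injured sensory neurons the kinase DLK activates the c-Jun N-terminal kinases (JNK), which phosphorylate c-Jun, and Atf3 is widely used as a marker of axotomized DRG neurons. Jdp2 is a repressor that dimerizes with Jun, and Atf2 is a JNK substrate.

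Of the 15 tested probes, 11 passed an adjusted p of 0.05 (limma's moderated test, Benjamini-Hochberg over all 31186 probes tested), 8 of them higher and 3 lower after injury. Over all probes tested, 23.5% were called, 10.5% higher and 13.1% lower, and 22.5% had injured and uninjured arrays that did not overlap. The 11 member probes called were also the 11 whose groups did not overlap. By gene, 7 of 10 were called higher and 2 lower by their brightest probe, with a median log2 change of 0.52 against 0.00 over all genes (11.4% called higher and 14% lower). Because the samples are whole ganglia, fewer cells of a type and less RNA per cell cannot be told apart.

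**Figure D1:**
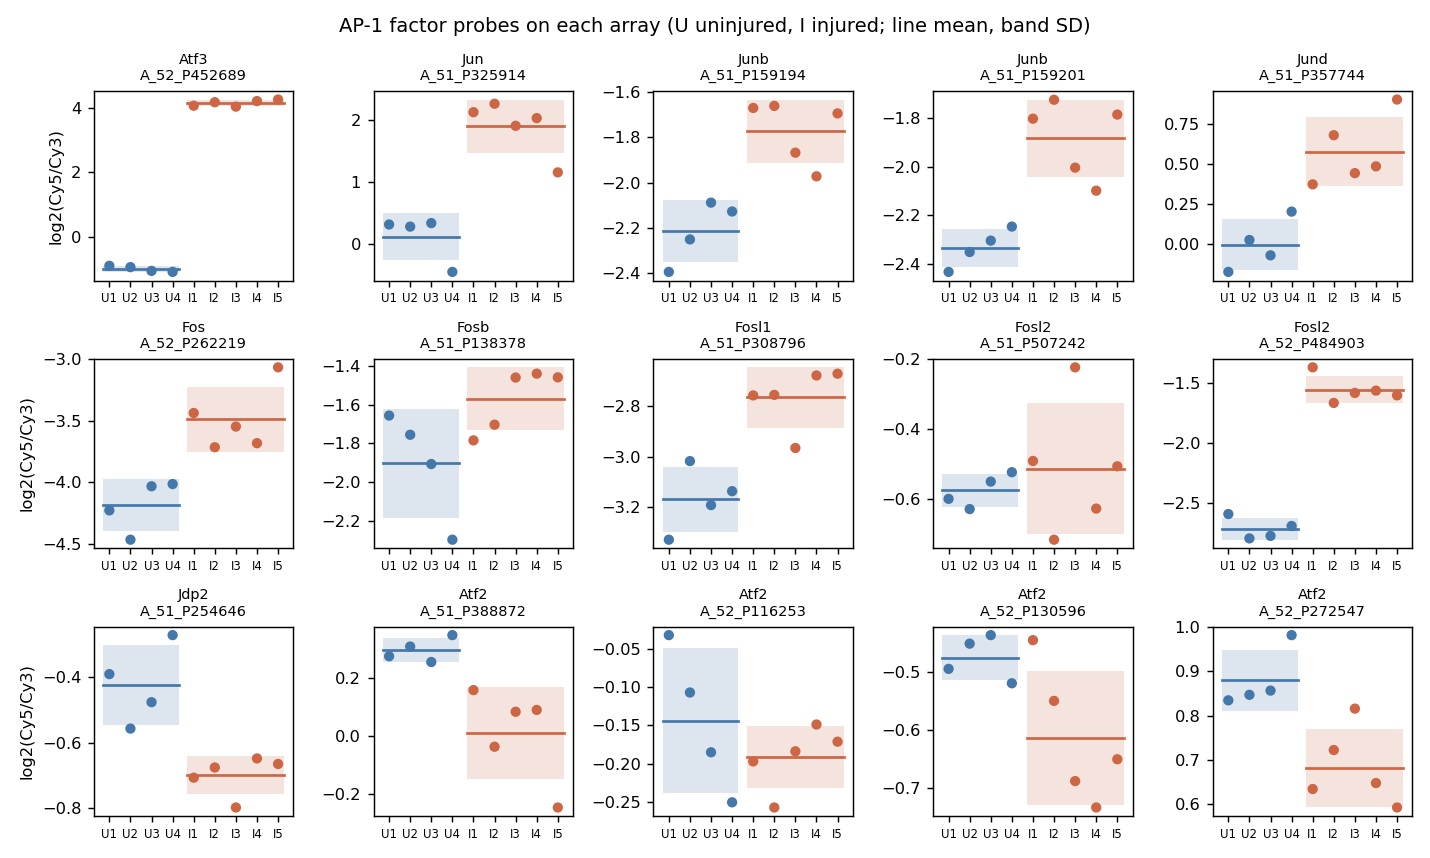
Log2 ratio of Cy5 (ganglion) to Cy3 (reference RNA) for each of the 15 tested AP-1 probes on the 4 uninjured arrays (U1 to U4) and 5 injured arrays (I1 to I5), 1 panel per probe, each with its own vertical axis. Points are arrays, lines group means and bands 1 SD. The Atf3 groups lie furthest apart. For Fosb, the Fosl2 probe A_51_P507242 and the Atf2 probes A_52_P116253 and A_52_P130596 the groups overlap.

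Atf3, an ATF-family member that dimerizes with Jun, showed the largest rise of all 20895 genes tested. Its only probe (A_52_P452689, on the minus strand at chr1:190724174-190724233 of mm7, the build in the array header) read log2 ratios of -0.90, -0.94, -1.06 and -1.09 on the uninjured arrays. The injured arrays read 4.06, 4.17, 4.03, 4.20 and 4.25. Within a group the arrays had an SD of 0.09, and the groups lay far apart. The log2 change was 5.14 ± 0.07 (SE, adjusted p = 2.32e-11, limma), a 35.3-fold rise. An exact two-sided permutation test over the 126 ways of dividing the arrays gave p = 0.00794, the smallest it allows. On the slide that held both groups the change was 5.06.

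The Cy5 and Cy3 brightness of the Atf3 spot behind this ratio were read separately. Background-subtracted Cy5 was 1006 to 1328 scanner units on the uninjured arrays and 48677, 67042, 67442, 87169 and 89078 on the injured ones, and no array was saturated. Cy3, which carried the same reference RNA throughout, was 1282 to 1543 on the uninjured arrays and 1706 to 2515 on the injured arrays. The Cy3 signal of this spot was thus also higher on every injured array, by 0.60 ± 0.04 log2 (SE, adjusted p = 0.000103, limma on quantile-normalized Cy3).

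Such a shift was rare in the reference channel, where 33 of 31684 probes (0.104%) were called and Atf3 was the only AP-1 probe among them. For the other 14 member probes tested in Cy3 the difference ran from -0.08 to 0.07 log2. Of the 14 probes called higher in Cy3, 13 were also called higher in the ratio, and of the 19 called lower in Cy3, 16 were called lower in the ratio. In Cy5 alone, quantile normalized between arrays, the Atf3 change was 5.90 ± 0.09 log2 (SE, adjusted p = 4.96e-11, limma). The source of the Cy3 difference was not tested.

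**Figure D2:**
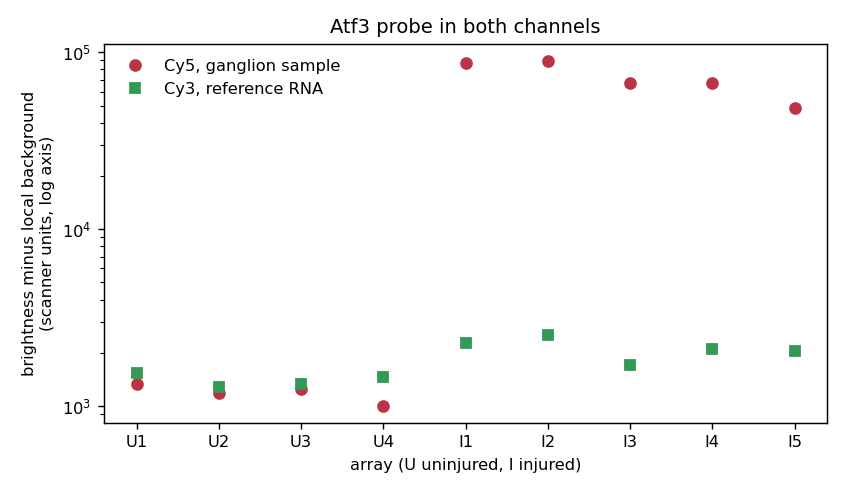
Brightness of the Atf3 spot minus its local background (scanner units, log axis) on each array, circles for Cy5 (ganglion sample) and squares for Cy3 (reference RNA). Cy5 lies between 1006 and 1328 on the uninjured arrays and between 48677 and 89078 on the injured arrays, and the Cy3 squares are also higher on the injured arrays.

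Jun encodes c-Jun, the founding AP-1 subunit. Its probe (A_51_P325914, minus strand, chr4:94441779-94441838 of mm7) was spotted 10 times on each array. The uninjured arrays read log2 ratios of 0.32, 0.29, 0.34 and -0.44, and the injured arrays 2.13, 2.26, 1.91, 2.03 and 1.16. The groups did not overlap, but each held 1 low array, uninjured array 4 and injured array 5. The log2 change was 1.77 ± 0.23 (SE, adjusted p = 0.000315, limma), a 3.41-fold rise, with a 95% confidence interval of 1.27 to 2.28. The change was 1.58 without uninjured array 4 and 1.96 without injured array 5. When slide entered the fit as a fixed block, the change was 1.53 and no longer passed (adjusted p = 0.0836, limma); that fit rests on the slide with 1 uninjured array.

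The spread of Jun between arrays exceeded its spread between spots. The 9 or 10 Jun spots kept on an array had an SD of 0.02 to 0.04 log2, against an SD between arrays of 0.38 in uninjured and 0.43 in injured ganglia. On injured array 5 the Jun spots ran from 1.12 to 1.21, below every spot on the other injured arrays. In brightness, Jun on injured array 5 (6725 scanner units in Cy5) fell inside the uninjured range of 3152 to 6851, and that array was the dimmest as a whole. Its Cy3 brightness at the Jun probe, 2533, lay within the range of the other arrays, 2086 to 2751. The same array read the highest injured value for Atf3, Jund, Fos and Fosl1.

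**Figure D3:**
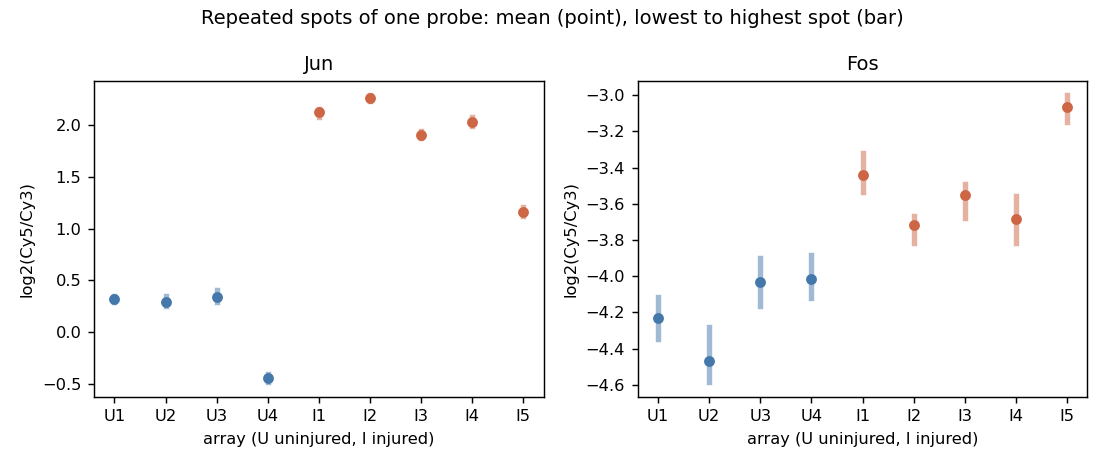
Log2 ratio of the Jun and Fos probes, each spotted 10 times per array; points are array means and bars run from the lowest to the highest spot. The spots of an array lie close together, and uninjured array 4 and injured array 5 are low for Jun but not for Fos.

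The sequences just upstream of the Atf3 and Jun start sites are shown because these were the AP-1 genes with the largest rises and because AP-1 and related factors are known to bind their own promoters. They are the 250 bases before the annotated start from RefSeq (GRCm38.p6), 5′ to 3′ along the gene, both from the minus strand, at chr1:191183334-191183583 for Atf3 and chr4:95052223-95052472 for Jun. Capitals mark a match to a motif searched.

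Atf3: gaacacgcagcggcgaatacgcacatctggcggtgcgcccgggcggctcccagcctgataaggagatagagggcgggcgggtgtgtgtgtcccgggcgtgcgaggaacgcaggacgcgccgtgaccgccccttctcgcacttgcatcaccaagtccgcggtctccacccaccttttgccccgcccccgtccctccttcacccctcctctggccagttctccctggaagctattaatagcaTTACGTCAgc

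Jun: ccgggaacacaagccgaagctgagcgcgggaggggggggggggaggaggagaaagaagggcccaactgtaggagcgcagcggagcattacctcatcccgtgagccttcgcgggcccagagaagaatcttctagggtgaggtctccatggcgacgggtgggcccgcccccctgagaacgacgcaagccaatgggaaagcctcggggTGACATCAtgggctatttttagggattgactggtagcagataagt

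Promoter windows were found for 9 of the 10 genes (not Fosl1), 11 windows in all. On either strand, TGAGTCA (the reverse complement of TGACTCA) and TGACGTCA were in none of the windows of these genes, against 5.16% and 1.77% of all 27025 genes with a window. TGACGCAA was in 1, Fosb, against 0.507% of all genes. Its match lies 52 bases before the start, in the minus-strand stretch chr7:19310087-19310116 of GRCm38.p6, which is shown for its capitals.

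Fosb: ggagttgcgggTGACGCAAgcgcgggggcg

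A pair of variants was added after the windows had been read. TTACGTCA was in the Atf3 window, ending 2 bases before the start, and in 0.525% of all genes. TGACATCA was in the Jun window, ending 37 bases before the start, and in 3.41% of all genes. No other AP-1 gene held either of them. These are matches of letters and do not show binding. Other variants were not searched, so letters left small may hold further related stretches, such as TTACCTCA in the Jun window.

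The other Jun-family genes rose by less. Junb, whose product is a weaker activator than c-Jun in many settings, had a pair of probes that overlap by 22 bases. A_51_P159194 (chr8:83563059-83563118, minus strand, mm7) read -2.39, -2.25, -2.09 and -2.13 on the uninjured arrays and -1.67, -1.66, -1.87, -1.97 and -1.70 on the injured ones. Injured arrays 3 and 4, which shared a slide, were the lowest of their group but still above every uninjured array. This is a log2 change of 0.44 ± 0.09 (SE, adjusted p = 0.00489, limma), and the overlapping probe A_51_P159201 gave 0.45 ± 0.09 (adjusted p = 0.00348). On the slide with both groups the first of them changed by 0.72. Neither Junb probe passed when arrays were centred on their median in place of loess (adjusted p = 0.169 and 0.145, limma).

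Jund, the Jun protein that is usually present without stimulation, read -0.17, 0.03, -0.07 and 0.20 on the uninjured arrays. The injured arrays read 0.37, 0.68, 0.44, 0.49 and 0.90. The ranges did not touch, with uninjured array 4 the nearest to the injured arrays. The log2 change was 0.58 ± 0.12 (SE, adjusted p = 0.00444, limma) at A_51_P357744. In Cy5 alone the change was smaller, 0.36, and passed (adjusted p = 0.0222, limma).

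Among the Fos-family genes, Fosl2 and Fos changed most. Fos encodes c-Fos, the partner of c-Jun induced rapidly and briefly by many stimuli. Its 10-spot probe (A_52_P262219, chr12:83478431-83478490, plus strand, mm7) read -4.23, -4.47, -4.03 and -4.02 on the uninjured arrays and -3.44, -3.72, -3.55, -3.68 and -3.07 on the injured ones. The Fos signal was dim in the ganglia, with a mean Cy5 brightness of 158 scanner units in uninjured and 266 in injured samples, yet well above background on all 9 arrays. The log2 change was 0.70 ± 0.14 (SE, adjusted p = 0.0047, limma), a 1.62-fold rise. Over the alternative settings it ran from 0.58 to 0.95, and it was 0.83 at a background offset of 0. Fitted with slide as a fixed block, the change of 0.82 did not pass (adjusted p = 0.109, limma).

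Fosl2, which encodes Fra-2, was read by a pair of probes with unlike values. A_52_P484903 read -2.59, -2.79, -2.77 and -2.69 on the uninjured arrays and -1.37, -1.67, -1.58, -1.56 and -1.60 on the injured ones, a log2 change of 1.15 ± 0.07 (SE, adjusted p = 2.36e-06, limma) or 2.22-fold. A_51_P507242, which lies 4476 bases before it on the plus strand of chromosome 5 (mm7), read between -0.63 and -0.52 on the uninjured arrays and between -0.72 and -0.22 on the injured ones. Its log2 change of 0.06 did not pass (adjusted p = 0.68, limma), with a 95% confidence interval of -0.14 to 0.26. Both were dim in uninjured ganglia, at a mean Cy5 brightness of 161 scanner units for A_52_P484903 and 100 for A_51_P507242. The difference between the probes on the same array ran from -2.22 to -1.99 in uninjured and from -1.36 to -0.88 in injured ganglia. Its change of 1.09 had an exact two-sided permutation p of 0.00794 (0.0635 after adjustment over the 8 probe pairs compared within genes). That p is the smallest the 126 divisions of the arrays allow, so a lone pair at this value cannot pass the adjustment. Gene models of mm7 were not used here, so the exons or transcript ends these probes reach are not stated.

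Fosl1, which encodes Fra-1, read -3.33, -3.02, -3.19 and -3.14 on the uninjured arrays. The injured arrays read -2.76, -2.76, -2.96, -2.68 and -2.67, each above every uninjured array, with injured array 3 the lowest. Their log2 change of 0.40 ± 0.08 passed (SE, adjusted p = 0.00521, limma), but not under median centring (0.33, adjusted p = 0.0981, limma).

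Fosb, known for the long-lived splice form ΔFosB, was the only gene of the 10 with no called probe. Its uninjured arrays read -1.66, -1.76, -1.91 and -2.30 and its injured arrays -1.78, -1.70, -1.46, -1.44 and -1.46, so that the groups overlapped. The log2 difference was 0.33 ± 0.13 (SE, adjusted p = 0.0881, limma), with a 95% confidence interval of 0.05 to 0.62. Without uninjured array 4 it was 0.20 (adjusted p = 0.209, limma), and on the slide with both groups it was 0.01. With slide as a random block it passed, at 0.39 (adjusted p = 0.015, limma).

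**Figure D4:**
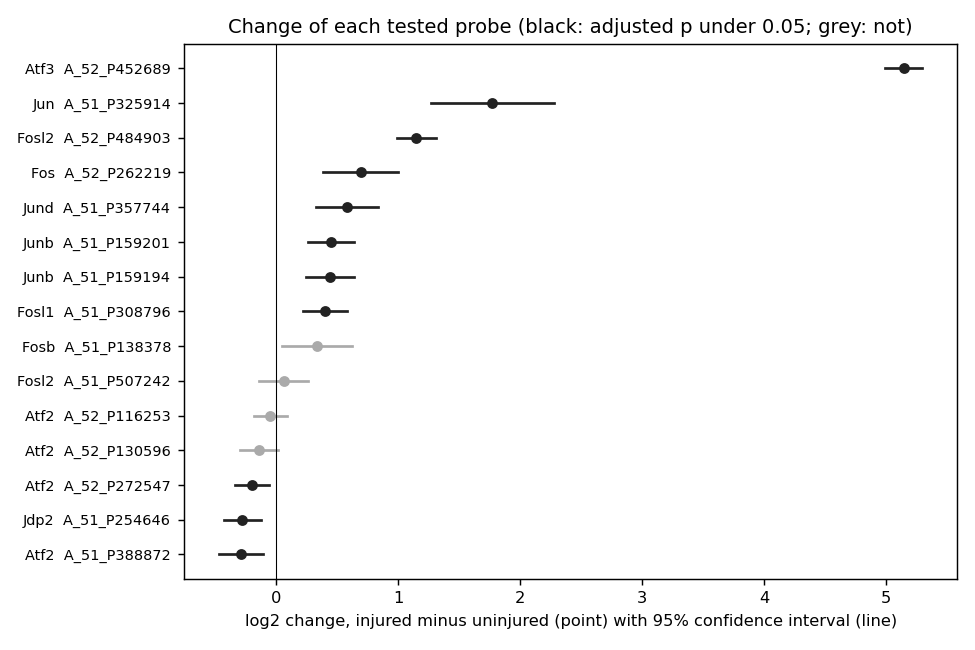
Log2 change (injured minus uninjured) of each of the 15 tested probes with its 95% confidence interval, black where the adjusted p was under 0.05 and grey where not. Atf3 stands at 5.14, Jun at 1.77 and the called Fosl2 probe at 1.15, and the called probes of Jdp2 and Atf2 lie below 0.

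The remaining members, Jdp2 and Atf2, were lower after injury where they were called. Jdp2 read -0.39, -0.56, -0.48 and -0.27 on the uninjured arrays and -0.71, -0.68, -0.80, -0.65 and -0.66 on the injured ones. The log2 change was -0.28 ± 0.07 (SE, adjusted p = 0.015, limma). It did not pass under median centring (-0.37, adjusted p = 0.0527), in Cy5 alone (-0.28, adjusted p = 0.0555) or with slides as fixed blocks (-0.29, adjusted p = 0.264, all limma). Jdp2 lies beside Fos on chromosome 12 with no protein-coding gene between them in RefSeq, and Batf, another AP-1-related gene, is the next protein-coding gene beyond it. Their log2 changes were -0.28 for Jdp2, 0.70 for Fos and 0.45 ± 0.10 for Batf (SE, adjusted p = 0.00934, limma over genes).

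Atf2 had 6 probes. A_51_P388872 read 0.28, 0.31, 0.26 and 0.35 on the uninjured arrays and 0.16, -0.04, 0.08, 0.09 and -0.24 on the injured ones, a log2 change of -0.29 ± 0.08 (SE, adjusted p = 0.0279, limma). A_52_P272547, 242 bases from it, read 0.83, 0.85, 0.86 and 0.98 against 0.63, 0.72, 0.82, 0.65 and 0.59, a change of -0.20 ± 0.06 (adjusted p = 0.0484, limma). Neither call was stable to leaving out an array. The first was lost without any 1 of the 4 uninjured arrays or without injured array 2 (adjusted p of 0.0542 to 0.0739), and the second without any 1 array except injured array 3 (0.0697 to 0.132).

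The other Atf2 probes were not called. A_52_P116253 differed by -0.05 (95% confidence interval -0.18 to 0.09) and A_52_P130596 by -0.14 (-0.29 to 0.01). A_52_P379037 and A_52_P86665, whose accessions in the files are cDNA clones and not RefSeq transcripts, were not well above background on any array and were not tested. None of the differences between Atf2 probes changed between the groups by a test that passed (lowest adjusted exact permutation p = 0.127, or 0.032 before adjustment). With so few arrays this test has little room to pass, so whether the Atf2 probes differ is not decided.

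Over the 9 arrays, the genes whose pattern was most like that of Atf3 were Sox11, Rnf183, Adam8, Smim3 and Sprr1a, with Pearson r between 0.998 and 0.9985. Their log2 changes ran from 2.12 to 4.99. Sox11 is a transcription factor, Rnf183 a ubiquitin ligase, Adam8 a membrane metalloprotease and Sprr1a a small proline-rich protein found in regenerating axons. For Jun they were Vash2, Anks1b, Cd3eap, Cgref1 and Cln8, with r between 0.984 and 0.9898 and log2 changes of 0.57 to 1.42. All of these r values include the difference between the groups, and they are descriptions over arrays that share slides and a reference.

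Of a list of 24 further bZIP genes, which does not cover the whole family and was drawn up with earlier results of these data known, 16 were called higher and 1 lower. Their median log2 change was 0.46, against 0.00 over all genes, of which 11.4% were called higher and 14% lower. Nfil3, a repressor also known as E4BP4, rose by 2.12 ± 0.09 (SE, adjusted p = 1.68e-07, limma), with log2 ratios of -1.71 ± 0.11 (SD, n = 4) in uninjured and 0.41 ± 0.16 (n = 5) in injured ganglia. Cebpd, a C/EBP factor of acute responses, rose by 1.45 ± 0.16 (adjusted p = 0.000137). Crem, a cyclic AMP response element modulator, rose by 1.35 ± 0.06 (adjusted p = 3.7e-07). Bach2, a repressor that pairs with small Maf proteins, was called lower, at -0.44 ± 0.09 (adjusted p = 0.00412).

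Of 11 kinases and scaffolds of the JNK arm tested, 1 was called higher and 4 lower, with a median log2 change of -0.02 (11.4% of all genes were called higher and 14% lower). Mapk9, which encodes JNK2, changed by -0.34 ± 0.09 (SE, adjusted p = 0.021, limma). Map2k4, a JNK kinase, changed by -0.31 ± 0.06 (adjusted p = 0.00549) and Map3k12, which encodes DLK, by -0.31 ± 0.07 (adjusted p = 0.0107). Mapk8, which encodes JNK1, was higher by 0.26 ± 0.07 (adjusted p = 0.0157). These are transcript levels, and kinase activity was not measured here.

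Of 20 immediate early genes tested, 8 were called higher and none lower (limma; 10 and 1 at an unadjusted p under 0.05), with a median log2 change of 0.30. Over all genes, 11.4% were called higher and 14% lower. Klf6, a zinc finger factor, rose by 1.59 ± 0.07 (SE, adjusted p = 1.96e-07, limma), the phosphatase Dusp1 by 1.24 ± 0.10 (adjusted p = 9.92e-06) and Arc, a synaptic plasticity gene, by 1.04 ± 0.11 (adjusted p = 0.000102). Egr1, Egr2, Egr4, Nr4a1, Nr4a2, Ier2, Klf4, Ccn1, Ccn2, Npas4, Srf and Gem of this list did not pass. Nr4a3, also listed, could not be tested.

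Of 21 genes known as linked to AP-1 in nerve or other tissues, 20 were tested (all but Vip). Of these, 16 were called higher and none lower (limma, with 16 and 0 at an unadjusted p under 0.05). Their median log2 change was 0.91. Over all genes, 11.4% were called higher and 14% lower. This list, too, was drawn up with earlier results of these data known, so its count is not independent evidence of a direction. Sprr1a rose by 4.99 ± 0.10 (SE, adjusted p = 1.41e-09, limma), below Atf3 alone among all genes. Npy, a neuropeptide, rose by 3.24 ± 0.22 (adjusted p = 3.88e-06) and Plaur, the urokinase receptor, by 2.47 ± 0.07 (adjusted p = 9.72e-09). In the reference channel 4 genes of this list were also called higher, Gal by 1.65 log2, Npy by 1.08, Itga7 by 0.52 and Sprr1a by 0.35. Hmox1, Mmp13, Ccnd1 and Mmp9 of this list did not pass.

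**Figure D5:**
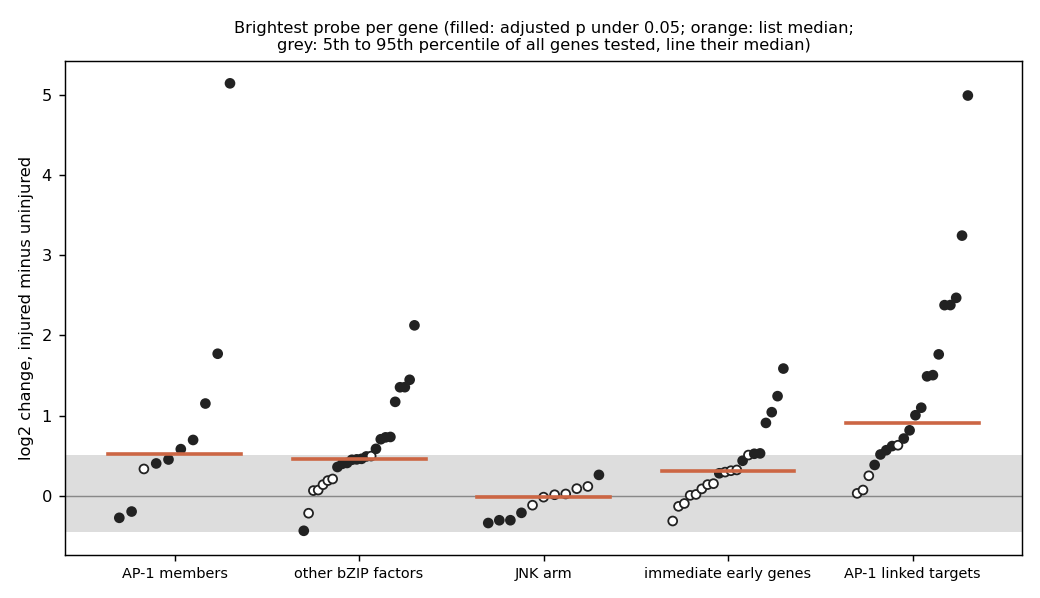
Log2 change (injured minus uninjured) of the brightest probe of each gene in 5 lists, filled where the adjusted p was under 0.05; orange bars are list medians. The grey band runs from the 5th to the 95th percentile of all genes tested (-0.46 to 0.51), and Atf3 and Sprr1a stand near 5 while the JNK arm stays inside the band.

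Markers of the cell types a ganglion can hold were read on the same arrays. Over all genes, 11.4% were called higher and 14% lower. The matching share of all genes at an unadjusted p under 0.05 is not given here, so the unadjusted counts have no background beside them. Of 14 sensory neuron markers tested, 1 was called, Isl1, a homeodomain factor, lower (log2 change -0.51 ± 0.06, SE, adjusted p = 0.000125, limma). At an unadjusted p under 0.05, 1 of them was higher and 4 were lower (limma). Of 11 macrophage markers, 3 were called higher and none lower (8 and 0 at an unadjusted p under 0.05, limma), with a median log2 change of 0.73. Aif1, which encodes Iba1, differed most among them (0.90 ± 0.20, adjusted p = 0.00764). As a mean over the list, relative to the uninjured average, macrophage markers ran from -0.41 to 0.35 on uninjured arrays and from 0.09 to 1.19 on injured arrays, highest on injured array 2.

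Of 9 satellite glia markers, 2 were called higher, with Glul, glutamine synthetase, at 0.78 ± 0.09 (SE, adjusted p = 0.000132, limma). The counts of called markers here, too, stand against 11.4% of all genes called higher and 14% lower. The unadjusted counts have no such share beside them. No marker of myelinating Schwann cells (largest difference Mag, 0.74), fibroblasts (Dcn, 0.51), red blood cells (Slc4a1, 1.09) or muscle (Myl1, 2.04) passed the test, whereas 2, 0, 3 and 1 of them in that order had an unadjusted p under 0.05 (limma), all higher. The endothelial marker Tek (0.47) and the cell division marker Birc5 (0.36) were called among 5 each; Mki67 of the latter list differed by 0.45 without passing. The muscle list stood 3.67 log2 above the uninjured average on injured array 4. Without that array the log2 changes were 5.13 for Atf3 and 1.74 for Jun. The part these markers play in the AP-1 changes was not tested.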

How the data were processed

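The 9 two-colour Agilent arrays were read from the scanner files as deposited, made by the authors with Feature Extraction 10.5.1.1 (design 014868, build mm7 per the file headers). Their units are intensity values (mean signal and median local background of each channel), Agilent's log10 ratio, and the authors' processed log2 ratios. The submitters' processing notes name limma. The deposited log2 ratios are Cy5 over Cy3 and lie near 0 on each array (array medians 0.02 to 0.024). The loess ratios computed here had a slope of 1.005 to 1.014 against them. How the deposited ratios were normalized was not tested.

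Background was removed by normexp (offset 50). Its parameters were fitted without spots of non-uniform local background, because 20 such spots on injured array 2 moved the fitted Cy5 mean from -15.5 to -358 scanner units. Loess within arrays followed, with control and flagged spots at weight 0. Flagged spots were left out, saturated ones kept, and a probe's spots averaged. Probes with Cy5 well above background on at least 4 arrays were tested (31186 of 41174) with limma 3.58.1 in R 4.3.3, injured minus uninjured, without covariates. For counts by gene, the gene lists and the cell type markers, the fit was repeated on the brightest tested probe of each gene. Brightness was the probe's mean quantile-normalized Cy5, and p-values were adjusted over the 20895 genes. Pairs of probes of a gene were compared by an exact permutation test added after the values were seen. The fit was also run on simulated arrays with independent noise and no slide effect, so that run cannot show how slides affect the calls. Names came from RefSeq (GRCm38.p6): 23082 probes by accession, 6582 by symbol, 3073 by older name, and 8437 had none.

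The members and lists were chosen with earlier results of these data known. Named are every probe of the 10 genes, the 3 called genes with the largest change in each pathway list and the largest the other way, the 5 genes most like Atf3 and Jun, and the marker of each cell type that differs most. Genes of the immediate early and AP-1 linked lists that did not pass are named as well. The number of arrays limits precision.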

Additional observations from a re-analysis of the deposited data

Results flagged for a closer look

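Of 34 groups of arrays examined (17 probes, 2 groups each), 2 held an array far from the rest of its group, where chance gives about 5% of groups. For Jun, uninjured array 4 read a log2 ratio of -0.44, against 0.29 for its nearest neighbour. For the Atf2 probe A_52_P272547, the same array read 0.98, against 0.86 for the nearest. Its median Cy5 brightness, 150 scanner units, lay within the range of the other arrays.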

How the results depend on the processing

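No paired analysis was possible because replicate numbers here follow accession order alone and no animal is named, although injured and uninjured ganglia may share animals. Atf3 stayed called in every alternative that gave a test, with log2 changes of 5.06 to 5.90. Jun passed in all of them except with slide as a fixed block, 1.53 (adjusted p = 0.0836, limma). Leaving out each array in turn gave 5.11 to 5.18 for Atf3, 1.58 to 1.96 for Jun, 9 to 11 member probes called and 5371 to 7480 probes called.

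Median centring in place of loess left 3516 probes called, 5 of them member probes (Atf3, Jun, Jund, Fos and A_52_P484903 of Fosl2). Slide as a fixed block left 1507 and 6, and that fit rests on 1 uninjured array. The cause of either loss was not tested. The Fosl2 probe A_51_P507242, which was not called, turned sign without background correction (-0.0026), in Agilent's own ratio (-0.031), in Cy5 alone (-0.022) and without injured array 3 (-0.0098), with 0.113 the highest value over arrays left out. The uncalled Cy3 difference of A_52_P116253 turned from -0.019 to 0.011 under 75th percentile scaling. With normexp fitted on all spots 11 member probes and 6138 in all were called, and with the authors' processed values 11 and 6894. Student's two-group test called 10 member probes and 6385 in all. The dimmest tested members, A_51_P507242 of Fosl2 and A_52_P116253 of Atf2, had a mean Cy5 brightness of 100 and 104 scanner units in uninjured ganglia, which limits what change could be seen there.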
